A study of Mus musculus with 9 samples.

Results

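The genes described here encode the costimulatory and coinhibitory surface proteins of the B7 family (Cd80, Cd86, Cd274, Pdcd1lg2, Icosl and Cd276), the inhibitory receptor TIM-3 (Havcr2), the costimulatory receptor CD40 (Cd40) and the maturation marker CD83 (Cd83). They were taken by symbol, 9 of the 24054 genes listed in each file, and all 9 passed the filter on low counts. mRNA was sequenced in 9 libraries of type 2 dendritic cells from mouse spleen, 3 per group. All mice were C57BL/6 and carried Clec9a-Cre and the Rosa-tdTomato reporter on both alleles, so no group lacked the Cre. Cells were sorted as live, MHCII+, CD11c+ and CD11b+ without autofluorescence, and then split by tdTomato, which marks cells with a history of Cre expression from the Clec9a locus, a gene of dendritic cell progenitors and cDC1. The groups were TOM+ cDC2 and TOM- DC2 at postnatal day 8, here called young, and TOM+ cDC2 from adults, aged 9 weeks in 1 library and 8 weeks in 2. There was no adult TOM- group. Young spleens were pooled before sorting. The study treats the libraries of a group as biological replicates, while the labels do not say which animals entered which library, so that p-values measure the spread between these libraries. The deposited names carry a number, which is 81, 91 or 92 in both young groups and 91, 92 or 95 in the adults.

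Dendritic cells give T cells antigen on MHC molecules together with signals that raise or restrain the response. CD80 and CD86 bind the activating receptor CD28 and the inhibitory receptor CTLA-4. PD-L1 (Cd274) and PD-L2 (Pdcd1lg2) bind the inhibitory receptor PD-1, and the ligand encoded by Icosl binds ICOS. CD40 receives the CD40 ligand of activated T cells, and signals from it and from microbial sensors raise CD80, CD86 and CD83 on dendritic cells through NF-kB. CD83 stabilizes MHC class II and CD86 on the cell surface by opposing the ubiquitin ligase MARCH1.

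Reads counted on genes numbered 12783252 to 22809401 per library, and 26.1% to 31.6% of reads were on no gene. Levels are the authors' TPM (a measure of transcript abundance scaled to transcript length and to the library's total), given as mean ± SD over n = 3 libraries. Differences were tested on the read counts with edgeR's quasi-likelihood test over 14452 genes, and each padj is Benjamini-Hochberg adjusted over all of them. A gene was called at a log2 fold change beyond 1 in either direction with a padj under 0.05. Genes that define cDC2 were present in every group: the TPM of 15 such genes summed to 19148 to 19385 in young TOM+ libraries, 17943 to 19068 in young TOM- libraries and 30471 to 32695 in adult libraries, and none of the 15 was at 0 in a whole group. Most of these sums was H2-Ab1, an MHC class II gene, at means of 16830, 16216 and 28827 TPM. The other genes went both ways with age: against young TOM+ cDC2, Esam (log2 fold change 2.21), Clec4a4 (1.49), Cd209a (1.29) and Cd4 (1.01) were called higher in adults and Clec10a (−1.80) lower in edgeR. At the adjusted p alone, Itgam (−0.78) and Sirpa (−0.56) were lower, and H2-Ab1 (0.90), Irf4 (0.75), Flt3 (0.57), Dpp4 (0.55) and Itgax (0.47) higher. In total 9 of the 15 were higher and 3 lower at the adjusted p, where 19.5% of all genes were higher. The median log2 fold change of the 15 was 0.55. The part of this shift in the age differences below was not tested. Because these are bulk samples, fewer cells of a kind cannot be told apart from less RNA per cell.

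The genes for the PD-1 ligands are neighbours. In GRCm38, Cd274 lies at chr19:29367455-29388095 and Pdcd1lg2 at chr19:29410919-29471161, both on the plus strand and 22.8 kb apart. Cd86 (chr16:36603869-36666081, minus strand) and Cd80 (chr16:38455561-38496335, plus strand) share chromosome 16 and lie 1.79 Mb apart. Cd40 lies at chr2:165055627-165072948 (plus), Cd83 at chr13:43784775-43803132 (plus), Icosl at chr10:78069302-78083913 (plus), Havcr2 at chr11:46454935-46481255 (plus) and Cd276 at chr9:58524298-58555437 (minus). All are protein-coding genes in the GENCODE annotation.

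RefSeq promoter windows of GRCm38.p6, from 250 bases before to 50 bases after the RefSeq start, were at hand for 6 of the 9 genes. The RefSeq start of Cd80 lies 3372 bases inside the GENCODE gene given above, so its window is within that gene, and that of Cd276 lies 404 bases inside. For the other 4 genes both starts were at most 66 bases apart. The windows of Cd80 (chr16:38458683-38458982), Cd274 (chr19:29367188-29367487) and Pdcd1lg2 (chr19:29410669-29410968), all on the plus strand, are shown. These were the genes with a window that were called with age in the comparisons below. Capitals mark matches to a motif searched on both strands. The searched letters were TTCNNNGAA (the GAS element), the core of the interferon-stimulated response element (GAAA, any 2 bases, GAAA), GAGGAAGT (PU.1), TGANTCA (AP-1) and the NF-kB consensus.
Cd80: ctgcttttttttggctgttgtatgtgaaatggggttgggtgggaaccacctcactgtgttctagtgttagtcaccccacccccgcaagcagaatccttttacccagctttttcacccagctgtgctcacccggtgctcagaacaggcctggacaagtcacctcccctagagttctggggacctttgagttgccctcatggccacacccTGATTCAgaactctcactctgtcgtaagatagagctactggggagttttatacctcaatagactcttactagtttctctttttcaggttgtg
Cd274: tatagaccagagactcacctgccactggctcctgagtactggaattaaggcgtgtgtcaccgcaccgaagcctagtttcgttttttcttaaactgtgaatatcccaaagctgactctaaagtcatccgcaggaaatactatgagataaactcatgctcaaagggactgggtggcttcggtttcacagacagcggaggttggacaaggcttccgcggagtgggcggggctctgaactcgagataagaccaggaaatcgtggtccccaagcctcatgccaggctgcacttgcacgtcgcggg
Pdcd1lg2: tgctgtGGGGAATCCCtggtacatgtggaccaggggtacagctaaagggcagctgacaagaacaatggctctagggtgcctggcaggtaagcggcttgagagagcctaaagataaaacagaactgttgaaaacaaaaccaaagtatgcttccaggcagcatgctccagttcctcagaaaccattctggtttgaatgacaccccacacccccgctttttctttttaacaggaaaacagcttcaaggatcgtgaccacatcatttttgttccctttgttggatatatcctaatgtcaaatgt
The Cd80 window held an AP-1 match that begins 42 bases before the start, a motif found in 7.81% of 32851 promoter windows. The Pdcd1lg2 window held a match to the NF-kB consensus that begins 244 bases before the start, a motif found in 8.46% of windows. The Cd274 window held none of the 5 motifs. Of the windows of the other genes, that of Icosl held the NF-kB consensus, that of Havcr2 held AP-1 and PU.1 (3.2% of windows), and that of Cd276 held none. None of the 6 windows held the GAS element or the response element core, which were in 8.3% and 3.44% of windows. The windows also differed in base composition. G and C made up 78.3% of the Cd276 window and 68.0% of that of Icosl, against 45.3% to 52.7% in the windows of Havcr2, Pdcd1lg2, Cd80 and Cd274. A match of letters does not show binding, and windows of 300 bases hold only part of a gene's control sequence.

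Cd83 was by far the most abundant of these transcripts and Cd276 the least. In young TOM+ cDC2 the order of TPM was Cd83 (1457 ± 99.3), Havcr2 (244.9 ± 29.6), Cd86 (173.4 ± 25.1), Icosl (111.7 ± 1.97), Cd274 (75.1 ± 14.1), Cd40 (64.6 ± 7.41), Cd80 (49.97 ± 2.27), Pdcd1lg2 (7.44 ± 1.47) and Cd276 (1.25 ± 0.178). Young TOM- DC2 had the same order. In both young groups only the neighbours Cd274 and Cd40 had overlapping ranges of TPM. In adult TOM+ cDC2, Cd83 (4311 ± 450.4) and Havcr2 (391.7 ± 17.1) stayed in front and Pdcd1lg2 (19.1 ± 0.372) and Cd276 (0.93 ± 0.0889) last. Between them, Cd86 (202.5 ± 27.8), Cd274 (193 ± 32.7), Icosl (147 ± 16.4), Cd80 (130.6 ± 12.5) and Cd40 (126.4 ± 19.6) lay so close that each overlapped the next in range.

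**Figure D1:**
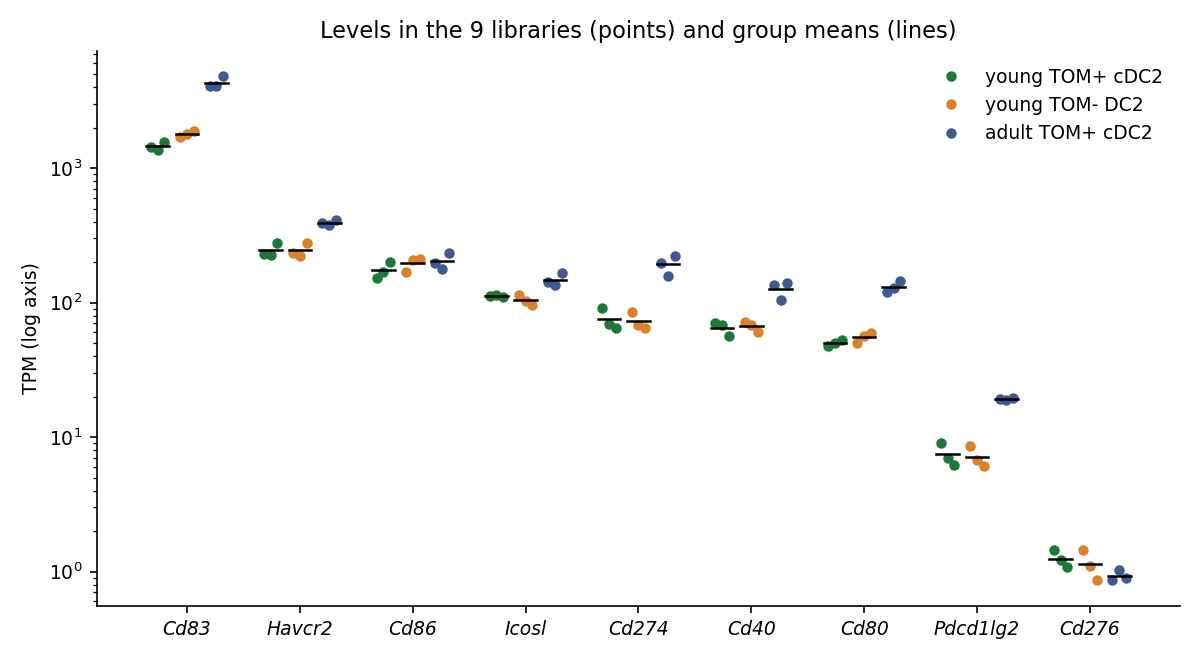
TPM on a log axis of the 9 genes in each library (points) with the mean of the 3 libraries of a group (black lines), ordered by level in young TOM+ cDC2. The adult points of Cd83, Havcr2, Icosl, Cd274, Cd40, Cd80 and Pdcd1lg2 lie above all young points, while those of Cd86 and Cd276 overlap the young points.

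The first question was how these genes differ between early life and adulthood. Of the 9 genes, 5 were called higher in adult than in young TOM+ cDC2 (Cd80, Cd274, Pdcd1lg2, Cd40 and Cd83) and 0 lower, while 6.86% of all tested genes were called higher and 5.96% lower. The same 5 genes were called higher in adult TOM+ cDC2 than in young TOM- DC2, where 4.78% of all genes were called higher and 6.5% lower. Both comparisons use the same adult libraries and are not independent. With Icosl and Havcr2, 7 of 9 passed a padj of 0.05 in each comparison, where 19.5% and 16.9% of all genes passed as higher in adults. For 7 of 9 genes the normalized counts of the adult libraries all lay above those of young TOM+ cDC2 (24% of all genes), and for 7 of 9 above those of young TOM- DC2 (21.5%). The median log2 fold change of the 9 genes was 1.08 against young TOM+ cDC2 and 1.06 against young TOM- DC2, beside −0.05 and −0.07 over all tested genes.

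The adult libraries also differed from the young ones in genes that mark mature, migratory dendritic cells, such as the chemokine receptor gene Ccr7. Over a list of 20 such genes, which holds none of the 9, TPM summed to 1797 to 2070 in young TOM+, 2025 to 2403 in young TOM- and 4464 to 6386 in adult libraries. Of the 20, 14 were called higher and 1 lower in adult than in young TOM+ cDC2, and 13 higher and 0 lower against young TOM- DC2. None of the 20 was at 0 in a whole group. The part of this difference in the values below was not tested. Summed markers of T cells (22 to 32.2 TPM in adult, 27.8 to 28.2 in young TOM+), cDC1 (383 to 419 and 408 to 448) and monocytes (1924 to 2427 and 1857 to 2701, mostly Lyz2) overlapped between adult and young TOM+ libraries. Of 8 T cell genes, 1 was called higher in adults (Cd8b1) and 0 lower. Of 10 cDC1 genes, 2 were called higher (Cd8a and Irf8) and 2 lower (Naaa and Cadm1). Of 10 monocyte genes, 0 were called higher and 1 lower (Ccr2), while 1 was higher and 5 lower at the adjusted p. Of all genes, 6.86% were called higher and 5.96% lower. At the adjusted p alone 19.5% of all genes were higher. The share lower at the adjusted p is not given, so the 5 monocyte genes have no matching share. The sums of plasmacytoid dendritic cells (135 to 175 and 111 to 117, mostly Bst2), neutrophils (8.37 to 11.2 and 5.42 to 6.1, mostly Csf3r) and innate lymphoid cells of type 3 (ILC3, 282 to 338 and 149 to 187, mostly Kit) were higher in adults, and those of macrophages were lower (269 to 337 and 376 to 407). Of 8 tested genes of plasmacytoid dendritic cells, 0 were called against young TOM+ cDC2. B cell markers overlapped in sum (59.6 to 76.1 and 64.6 to 74.4), although 5 of 9 tested genes were called higher in adult than in young TOM+ cDC2 and 1 lower. The B cell factor gene Pax5 was at or below 0.04 TPM on average in every group. Set against young TOM- libraries, the adult sums were lower for T cells (37.5 to 39.6 TPM in TOM-), B cells (84.1 to 97.7) and macrophages (502 to 559), without overlap. They were higher for plasmacytoid dendritic cells (119 to 126) and ILC3 (194 to 258, mostly Kit), and they overlapped for cDC1, monocytes and neutrophils. Single genes did not all follow these sums. Of 6 tested ILC3 genes, 0 were called higher in adults and 2 lower (Il18r1 and Tox), with a median log2 fold change of −1.01. Of 9 tested B cell genes, 3 were called higher (Cr2, Blk and Ms4a1) and 2 lower (Fcrla and Fcer2a). Of all genes, 4.78% were called higher and 6.5% lower in this comparison.

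Among the CD28 ligands, Cd80 rose with age and Cd86 did not pass the test. Cd80 measured 47.8, 49.8 and 52.3 TPM in young TOM+, 50.3, 56.8 and 59.3 in young TOM- and 120, 127 and 144 in adult libraries. Every adult library lay above every young one. The log2 fold change was 1.51 (SE 0.11, padj = 8.8e-07 in edgeR) against young TOM+ cDC2, a 2.85-fold difference, and 1.39 (SE 0.11, padj = 2.2e-06 in edgeR) against young TOM- DC2.

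Cd86 measured 152, 168 and 201 TPM in young TOM+, 168, 208 and 210 in young TOM- and 197, 178 and 233 in adult libraries, so that all groups overlapped. Its log2 fold change was 0.36 (95% interval 0.04 to 0.68, padj = 0.066 in edgeR) in adult against young TOM+ cDC2 and 0.22 (−0.10 to 0.54, padj = 0.26) against young TOM- DC2. With the young libraries blocked by the number they share, these padj became 0.0034 and 0.045 in edgeR at log2 fold changes of 0.38 and 0.24. With all libraries blocked they became 0.12 and 0.92 at 0.15 and 0.01. None of these reached the fold threshold, and a doubling lay outside both unblocked intervals.

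As a result of the unequal differences, the balance of these transcripts differed by age. The ratio of Cd86 to Cd80 TPM was 3.17, 3.37 and 3.84 in young TOM+, 3.34, 3.66 and 3.55 in young TOM- and 1.64, 1.4 and 1.61 in adult libraries. The young and adult ranges lay far apart. The ratio of Cd274 to Cd86 was 0.321 to 0.601 and 0.31 to 0.509 in the young groups and 0.889 to 1 in adults. That of Cd40 to Cd86 was 0.28 to 0.462 and 0.289 to 0.427 in the young groups and 0.584 to 0.688 in adults. These ratios restate the levels above within each library, and carry no separate test.

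**Figure D2:**
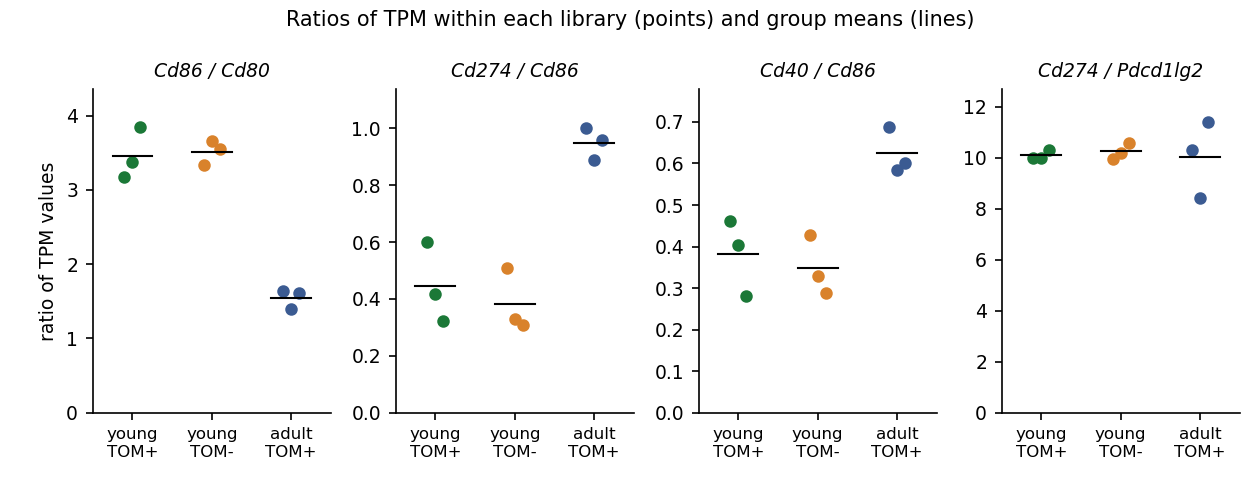
Ratios of TPM within each library (points) and group means (lines) for Cd86 to Cd80, Cd274 to Cd86, Cd40 to Cd86 and Cd274 to Pdcd1lg2, each on a linear axis from 0. The first 3 ratios separate adult from young libraries without overlap, while Cd274 to Pdcd1lg2 stays between 8.44 and 11.4 in all 9.

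The genes for both PD-1 ligands were higher in adults by nearly the same factor. Cd274 measured 91.1, 69.8 and 64.4 TPM in young TOM+, 85.6, 68.2 and 65.1 in young TOM- and 198, 158 and 223 in adult libraries. The lowest adult value lay well above the highest young value. Its log2 fold change was 1.49 (SE 0.13, padj = 4.8e-06 in edgeR) against young TOM+ cDC2 and 1.56 (SE 0.13, padj = 4.8e-06) against young TOM- DC2, or 2.81-fold and 2.95-fold.

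Pdcd1lg2 was a rarer transcript than Cd274. It measured 9.08, 6.98 and 6.25 TPM in young TOM+, 8.58, 6.71 and 6.12 in young TOM- and 19.2, 18.7 and 19.5 in adult libraries, from 228 to 667 reads. The adult libraries were close to each other and above all young ones. Its log2 fold change was 1.52 (SE 0.13, padj = 4e-06 in edgeR) against young TOM+ cDC2 and 1.60 (SE 0.13, padj = 4.2e-06) against young TOM- DC2. The ratio of Cd274 to Pdcd1lg2 TPM was 10 to 10.3 in young TOM+, 9.97 to 10.6 in young TOM- and 8.44 to 11.4 in adult libraries, with no shift by age.

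Icosl, the gene for the ICOS ligand, was higher in adults by less than the fold threshold. It measured 113, 113 and 109 TPM in young TOM+, 115, 103 and 96.3 in young TOM- and 141, 134 and 165 in adult libraries, with all adult libraries on top. The log2 fold change was 0.52 (SE 0.08, padj = 0.00039 in edgeR) against young TOM+ cDC2 and 0.65 (SE 0.08, padj = 9.9e-05) against young TOM- DC2.

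Cd276, which encodes B7-H3, was barely present. It measured 1.44, 1.21 and 1.09 TPM in young TOM+, 1.45, 1.11 and 0.86 in young TOM- and 0.86, 1.03 and 0.90 in adult libraries, from 20 to 51 reads per library. Its log2 fold changes in adults were −0.25 (95% interval −0.85 to 0.35, padj = 0.49 in edgeR) and −0.08 (−0.69 to 0.53, padj = 0.84). A difference was not detectable at this depth.

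Havcr2 encodes TIM-3, a receptor that restrains T cells and dendritic cells, and was the second most abundant transcript of the set. It measured 230, 226 and 279 TPM in young TOM+, 235, 222 and 278 in young TOM- and 391, 375 and 409 in adult libraries. All adult libraries lay above all young ones. The log2 fold change was 0.79 (SE 0.12, padj = 0.00019 in edgeR) against young TOM+ cDC2 and 0.83 (SE 0.12, padj = 0.00017) against young TOM- DC2, past the adjusted p and short of the fold threshold.

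Cd40 measured 70.1, 67.6 and 56.2 TPM in young TOM+, 71.9, 68.4 and 60.8 in young TOM- and 136, 104 and 140 in adult libraries. The young groups interleaved and the adult libraries lay above both. The log2 fold change was 1.08 (SE 0.11, padj = 1.7e-05 in edgeR) against young TOM+ cDC2 and 1.06 (SE 0.11, padj = 2.5e-05) against young TOM- DC2, just past the fold threshold. On log2(TPM + 1), limma gave 0.95 (padj = 0.0004) and 0.90 (padj = 0.00063), which ends both calls by the fold threshold alone. The median over all genes on that scale was −0.10 and −0.14, a shift that these values include.

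Cd83 showed the largest age difference of the 9 against young TOM+ cDC2. It measured 1438, 1368 and 1564 TPM in young TOM+, 1713, 1782 and 1899 in young TOM- and 4039, 4063 and 4831 in adult libraries. The adult libraries lay far above both young groups. The log2 fold change was 1.68 (SE 0.10, padj = 2.5e-07 in edgeR) against young TOM+ cDC2, a 3.21-fold difference that exceeded that of 95.7% of tested genes. The value against young TOM- DC2 was 1.41 (SE 0.10, padj = 1e-06 in edgeR), smaller than the values of Cd274 (1.56) and Pdcd1lg2 (1.60) in the same comparison.

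**Figure D3:**
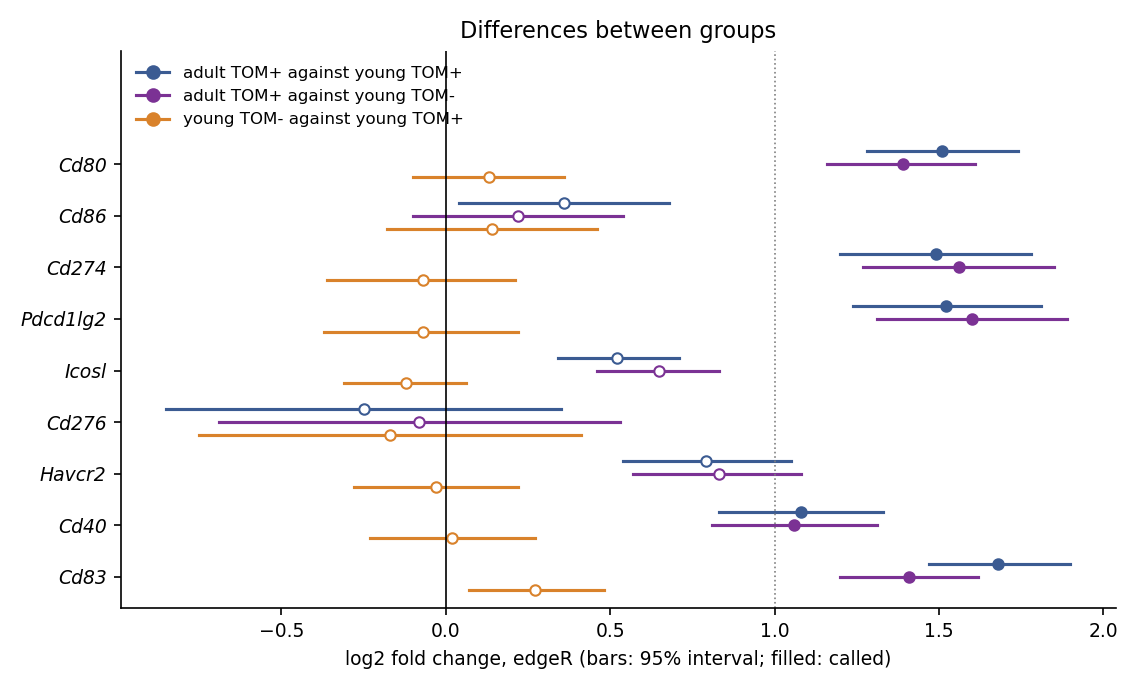
Log2 fold changes of the 9 genes from edgeR (points, with 95% intervals as bars) for the 3 comparisons of groups, filled where the gene was called. The dotted line marks a log2 fold change of 1. The age differences of Cd80, Cd274, Pdcd1lg2, Cd40 and Cd83 lie to its right, and no difference between the young groups reaches 0.5.

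The second question was whether cells with and without a Clec9a-Cre history differ in these genes at the same age. Of the 9 genes, edgeR called 0 between young TOM- DC2 and young TOM+ cDC2, and DESeq2 and limma also called 0. Of all tested genes, 1.18% were called in this comparison. At an unadjusted p under 0.05, 1 of the 9 passed in edgeR, which was Cd83, beside 9.38% of all tested genes. The log2 fold changes, as TOM- minus TOM+, ran from −0.17 (Cd276) to 0.27 (Cd83) with a median of −0.03, beside −0.00 over all genes. The 95% intervals stayed within −0.37 to 0.48 for all genes but Cd276, where the interval was −0.75 to 0.41, so that a doubling was outside every interval.

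Cd83 had the largest difference, with 1438 TPM in the TOM+ and 1713 in the TOM- library named 81, 1368 and 1782 in those named 91, and 1564 and 1899 in those named 92. It was thus higher in TOM- DC2 in 3 of 3 pairs and the groups did not overlap in TPM, while they overlapped in TMM-normalized counts. Cd80, Cd86 and Cd40 were also higher in TOM- DC2 in 3 of 3 pairs, by less than Cd83 in each pair. The log2 fold change of Cd83 was 0.27 (SE 0.09, unadjusted p = 0.013, padj = 0.28 in edgeR). With a block for the number, edgeR gave a padj of 0.0014 over all 9 libraries and of 0.058 with the young libraries alone blocked, both at a log2 fold change of 0.27. Whether Cd83 passes an adjusted p of 0.05 therefore depends on how the pairing enters the fit, and its difference of 1.21-fold stayed below the call threshold throughout.

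Icosl was the 1 gene of 9 whose normalized counts did not overlap between the young groups, being lower in TOM- DC2, a pattern shared by 7.36% of all genes. Its log2 fold change was −0.12 (SE 0.08, padj = 0.77 in edgeR), and its TPM overlapped. Havcr2 (244.9 ± 29.6 and 245.1 ± 29.4 TPM) and Cd40 (64.6 ± 7.41 and 67.0 ± 5.68) had nearly equal means in both groups, with log2 fold changes of −0.03 (95% interval −0.28 to 0.22) and 0.02 (−0.23 to 0.27).

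Libraries that share a number resembled each other across the young groups. The 81 libraries had the highest Cd274, Pdcd1lg2, Cd40 and Cd276 and the lowest Cd80 and Cd86 in TOM+ as well as in TOM- cells, and the 92 libraries had the highest Havcr2 and Cd83 in both. For Cd274 the 81 libraries measured 91.1 and 85.6 TPM, the 91 libraries 69.8 and 68.2, and the 92 libraries 64.4 and 65.1, so that the spread within a group exceeded the difference within any pair. The sources used here do not say what the number stands for.

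**Figure D4:**
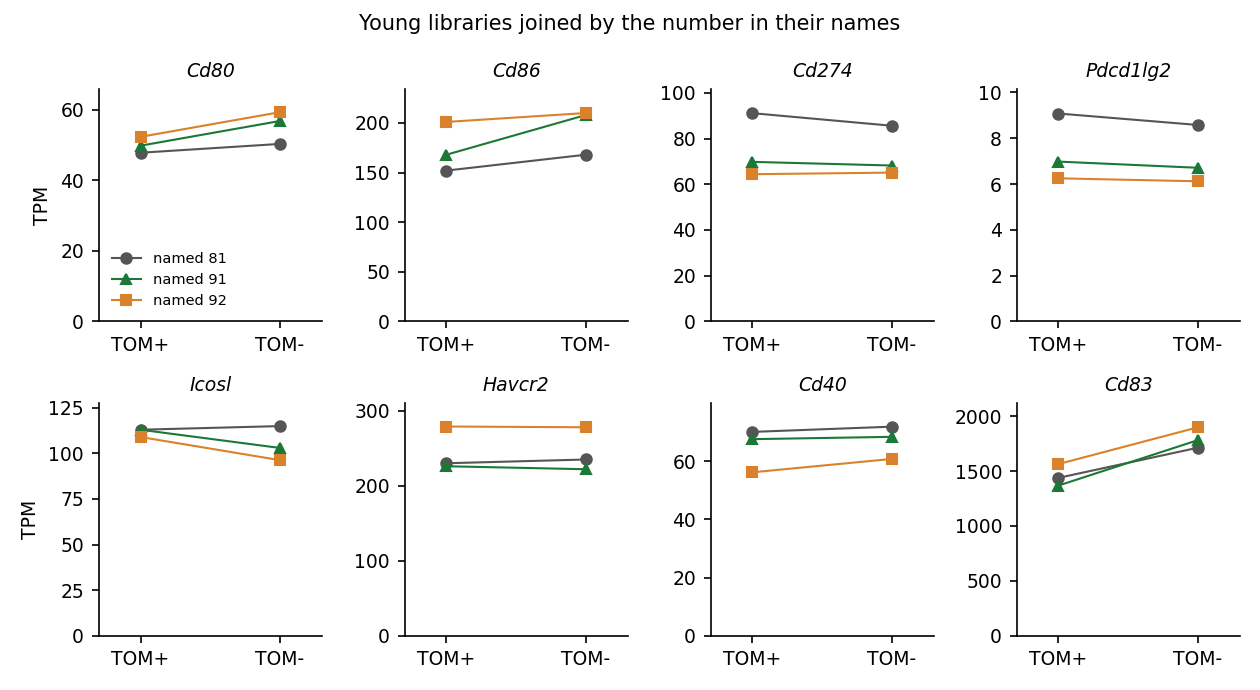
TPM in young TOM+ and TOM- libraries on axes from 0, with lines joining libraries that carry the same number in their names (circles 81, triangles 91, squares 92). Lines for Cd83, Cd80 and Cd86 rise in all 3 pairs, and those for Cd40 rise slightly in all 3. Lines for Cd274, Pdcd1lg2 and Havcr2 run nearly flat at different heights.

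Markers of other cells differed between the young groups. Summed TPM of TOM- libraries exceeded that of TOM+ libraries for markers of B cells (84.1 to 97.7 against 64.6 to 74.4), macrophages (502 to 559 against 376 to 407), T cells (37.5 to 39.6 against 27.8 to 28.2, mostly Cd5), plasmacytoid dendritic cells (119 to 126 against 111 to 117, mostly Bst2) and ILC3 (194 to 258 against 149 to 187). Sums overlapped for cDC1 (413 to 456 in TOM- libraries), monocytes (1968 to 3208), neutrophils (5.42 to 43.4) and mature dendritic cells (2025 to 2403). Within the mature dendritic cell list, 17 of 20 genes had log2 fold changes above 0 in TOM- DC2, with a median of 0.36, and 0 were called in edgeR. Ccl5 (0.67, padj = 0.011) and Apol7c (0.88, padj = 0.042) passed the adjusted p, while Ccr7 (0.43, padj = 0.36) did not, although its normalized counts did not overlap. Most genes were also above 0 in the lists of macrophages (11 of 11, median 0.69), B cells (8 of 9, 1.59), ILC3 (6 of 6, 0.78) and neutrophils (7 of 7, 2.55). For T cells (6 of 8, 0.21) and monocytes (6 of 10, 0.10) the medians were smaller. Those of cDC1 (4 of 10, −0.03) and plasmacytoid dendritic cells (4 of 8, −0.06) were near 0. The high neutrophil sum came from 1 TOM- library, at 43.4 TPM, while the median TOM- library had 5.6 and TOM+ libraries had 5.42 to 6.1. Of 7 tested neutrophil genes, 0 were called in either direction. Calls in TOM- DC2 were 3 higher of 9 tested B cell genes, 0 of 11 macrophage genes and 1 higher of 6 tested ILC3 genes, with 0 lower. Of all tested genes, 1.18% were called in either direction. The called B cell genes were Fcer2a (9.62-fold), Blk (8.74-fold) and Ms4a1 (3.01-fold), and the called ILC3 gene was Il18r1. Pax5 was at 0 in all TOM- libraries, and most of the B cell sum was Cd79b, with means of 62.1 and 64.7 TPM in young TOM+ and TOM- libraries. The part of these markers in the values above was not tested.

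The genes whose pattern over the 9 libraries was most like that of each called gene were found by the root mean square difference of centred log2 normalized counts, among the 10111 tested genes that averaged 50 reads or more. Nearest to Cd80 were Plek (0.068), Cd83 (0.089) and Il21r (0.089), and nearest to Cd83 were Rtp4 (0.079), Cd80 (0.089) and Arhgef3 (0.091). Cd80 and Cd83 were thus each second in the list of the other. Nearest to Cd274 were Gpm6b (0.055), 5830416P10Rik (0.088) and Mreg (0.099), with Pdcd1lg2 in rank 6 (0.116). Nearest to Pdcd1lg2 were 1300002K09Rik (0.103), Cacnb1 (0.110) and Cd274 (0.116). Nearest to Cd40 were Prr5l (0.090), Letm2 (0.102) and Tmem123 (0.108). In the list of Cd80, the other CD28 ligand gene Cd86 held rank 2064 (0.550). These are descriptions over 9 libraries that differ mainly by age.

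The other genes of these pathways were taken from lists. Of 21 genes of the CD40 and NF-kB pathway, 20 were tested. Of these, 6 were called higher in adult than in young TOM+ cDC2 and 0 lower, where 6.86% and 5.96% of all genes were. The called genes were Rel (1.17), Relb (1.37), Nfkbie (1.23), Traf1 (1.35), Birc2 (1.06) and Birc3 (1.12), with log2 fold changes in brackets. At the adjusted p alone, 17 of 20 were higher in adults, where 19.5% of all genes were, and the list's median log2 fold change was 0.52 beside −0.05 over all genes. In the comparison with young TOM- DC2, 5 were called higher (the same genes but Birc2, 0.89) and 0 lower, where 4.78% and 6.5% of all genes were. The median there was 0.58. The count of calls in this comparison was 3 without adult replicate 3 and 3 with the replicate block.

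Relb, an NF-kB subunit of the pathway downstream of CD40, measured 227, 196 and 191 TPM in young TOM+, 197, 169 and 189 in young TOM- and 468, 439 and 542 in adult libraries. Traf1, an adaptor of TNF receptors, measured 308, 273 and 284 TPM in young TOM+, 288, 258 and 286 in young TOM- and 550, 671 and 774 in adult libraries. Both genes separated adult from young without overlap (padj = 5e-07 and 1.4e-06 in edgeR against young TOM+ cDC2). The adaptors Traf3 (0.03, padj = 0.79), Traf5 (0.07, padj = 0.6) and Traf6 (−0.08, padj = 0.6) did not pass in edgeR. Between the young groups edgeR called 0 of 20, as did every alternative, and 0 passed the adjusted p, against 1.6% of all genes. The gene of the CD40 ligand, Cd40lg, had 0 to 2 reads per library and was not tested.

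**Figure D5:**
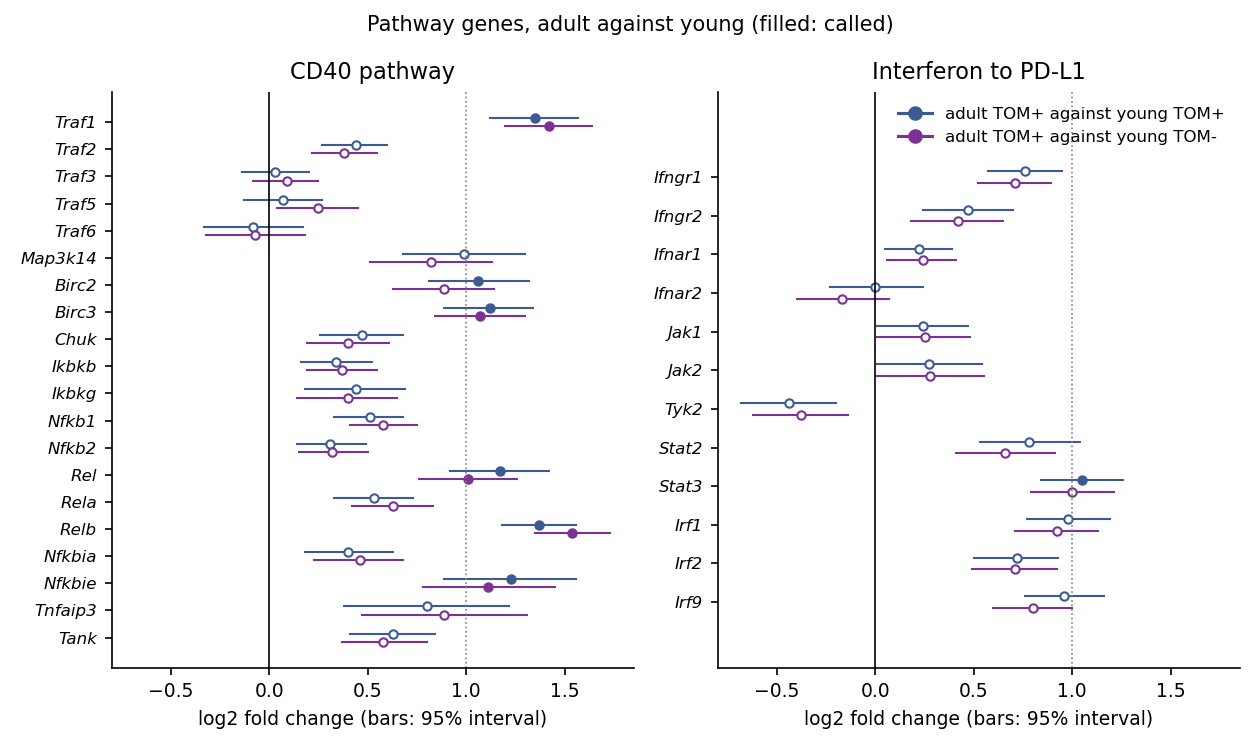
Log2 fold changes from edgeR (points, with 95% intervals) in adult TOM+ cDC2 against each young group for the tested genes of the CD40 pathway and of the path from interferon receptors to PD-L1, filled where called. Nearly all points lie right of 0, apart from Traf6 and Tyk2 in both comparisons and Ifnar2, which lies at 0.00 and −0.17.

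Of 12 genes on the path from interferon receptors to PD-L1, 1 was called higher in adult than in young TOM+ cDC2 (Stat3) and 0 lower, where 6.86% of all genes were called higher. At the adjusted p, 8 were higher, where 19.5% of all genes were, and 1 (Tyk2) was lower. The list's median log2 fold change was 0.59. Relative to young TOM- DC2, 0 were called in edgeR, where 4.78% of all genes were called higher. There 11 passed an unadjusted p of 0.05 (46% of all genes), and 8 were higher (16.9% of all genes) and 1 lower at the adjusted p, with a median of 0.54. DESeq2 with apeglm called 1 there, limma called 0, and edgeR with the replicate block called 1. Between the young groups 0 were called in edgeR or any alternative. Stat3, a transcription factor downstream of cytokine receptors, measured 125, 99.7 and 108 TPM in young TOM+, 127, 100.4 and 122 in young TOM- and 199.8, 222 and 203 in adult libraries. Every adult library lay above every young one. Stat3 stood at the threshold with log2 fold changes of 1.05 (SE 0.10, padj = 6.1e-06 in edgeR) and 1.00 (SE 0.10, padj = 1.2e-05). Irf1, a factor that drives Cd274, fell just short with 0.98 (padj = 9.6e-06) and 0.92 (padj = 2e-05). The count of the list against young TOM+ cDC2 was 3 without adult replicate 1 or without young TOM+ replicate 3, 2 without young TOM- replicate 3 and 0 without adult replicate 2. For young TOM- DC2 it was 1 without adult replicate 1 or 3, young TOM+ replicate 3, or young TOM- replicate 1 or 3.

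Of 18 other genes of the B7 and CD28 families, 14 were tested. In adult against young TOM+ cDC2, 4 were called higher (Icos, Pdcd1, Btn2a2 and Tnfrsf14) and 4 lower (Cd28, Ctla4, Treml2 and Cd226), where 6.86% and 5.96% of all genes were, with a list median of −0.30. In adult cells relative to young TOM- DC2, 2 were called higher (Icos and Btn2a2) and 4 lower (Cd28, Ctla4, Cd96 and Treml2), where 4.78% and 6.5% of all genes were, with a list median of −0.27. Most of these rest on few reads: Cd28, Ctla4, Treml2, Btn2a2, Cd226, Cd96 and Pdcd1 had at most 58 reads in any library. Cd28 had 1 to 10 reads in each young library and 0 in each adult one, and its fold is not given because both groups are near the limit of counting. The receptor gene Icos was better covered, with 5.26, 4.51 and 3.50 TPM in young TOM+, 4.75, 5.70 and 4.19 in young TOM- and 14.0, 15.3 and 17.1 in adult libraries (log2 fold changes 1.97 and 1.80, padj = 1.7e-06 and 4.3e-06 in edgeR). Pdcd1, which encodes PD-1, measured 0.957 ± 0.441 TPM in young TOM+, 1.42 ± 0.813 in young TOM- and 1.95 ± 0.196 in adult cells. Btla, an inhibitory receptor gene, was lower in adults at the adjusted p only against young TOM+ cDC2 (−0.66, padj = 0.0052 in edgeR), and the difference between both comparisons was not tested. The count of calls against young TOM+ cDC2 was 3 without young TOM+ replicate 2 or adult replicate 3 and 4 without young TOM+ replicate 3 or adult replicate 1 or 2. For the comparison with young TOM- DC2 it was 3 without young TOM- replicate 3 or adult replicate 2 or 3. Between the young groups 0 of 14 were called in edgeR or any alternative.

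Of 7 genes that control the turnover of CD86, MHC class II or PD-L1 on the surface, 0 were called in adult against young TOM+ cDC2 in edgeR, DESeq2 or limma, and 1 passed an unadjusted p of 0.05 in edgeR (48.6% of all genes). March1 (Marchf1), whose product removes CD86 and MHC class II from the surface, measured 67.2 ± 6.62, 61.2 ± 9.2 and 70 ± 3.6 TPM in young TOM+, young TOM- and adult cells. Its log2 fold change was 0.18 (padj = 0.13 in edgeR) and 0.35 (padj = 0.0087) in adults. Cmtm6, which protects PD-L1 from degradation, was at −0.10 in both (padj = 0.31 and 0.29). March8, at 3 to 47 reads, was called lower against young TOM- DC2, and this call was lost with the replicate block and without any of the 3 young TOM- replicates, adult replicate 1 or adult replicate 3.

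Of 7 other TIM family genes and TIM-3 ligand genes, 1 was called lower in adult than in young TOM+ cDC2 (Timd4) and 0 higher, and 0 were called against young TOM- DC2 in edgeR, DESeq2 or limma, where 3 passed an unadjusted p of 0.05 in edgeR (46% of all genes). Of all genes, 5.96% and 6.5% were called lower in these comparisons. The first count was 2 without adult replicate 3 or with the replicate block, and the second was 1 with that block. At the adjusted p in edgeR, 3 were lower against young TOM+ cDC2 and 2 against young TOM- DC2, with 0 higher. The shares of all genes lower at the adjusted p alone are not given, and the called shares above use a stricter rule. In both comparisons 0 of 7 log2 fold changes were above 0. Timd4, a receptor for phosphatidylserine on dying cells, measured 7.59, 12.2 and 16.2 TPM in young TOM+, 3.94, 6.52 and 6.72 in young TOM- and 2.83, 2.09 and 5.14 in adult libraries. It was lower in TOM- than in TOM+ cells in 3 of 3 pairs of young libraries, with a log2 fold change of −1.05 (SE 0.33, padj = 0.22 in edgeR). With a block for the number it was called, at −1.06 (padj = 0.0002) over all 9 libraries and −1.05 (padj = 0.027) with the young libraries alone blocked, and it was also called without young TOM+ replicate 1 (−1.32). Lgals9, which encodes the TIM-3 ligand galectin-9, measured 88 ± 4.77, 97.9 ± 3.27 and 76.2 ± 4.73 TPM in young TOM+, young TOM- and adult cells (−0.08 and −0.20 in adults, padj = 0.47 and 0.075).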

How the data were processed

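mRNA sequencing of 9 libraries was analysed, grouped by the sample labels into young TOM+ cDC2, young TOM- DC2 and adult TOM+ cDC2. The authors sorted cells into lysis buffer, made cDNA with SMART-seq v4, which keeps no strand, and aligned reads to mm10 with STAR. STAR and RSEM versions are not given in the sources used here. The deposited STAR files hold read counts per gene, without normalization, of which the unstranded column was used. The 4 summary lines were left out of library sizes. The deposited RSEM files hold expected counts, rounded here where tested, and TPM, which the authors' RSEM run scaled to each library's total. FPKM were not used. No columns of per-sample values outside these samples occurred. STAR counts of reads with a single position can understate genes with close copies. RSEM expected counts were 88.8% to 100.0% of the STAR counts for the 9 genes.

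Counts were tested in R 4.3.3 with edgeR 4.0.16 (TMM, quasi-likelihood test, all 9 libraries in 3 groups) over 14452 genes that averaged 1 read or more. TMM factors were 1.02 to 1.08 in young and 0.894 to 0.928 in adult libraries. Alternatives used DESeq2 1.42.0 with apeglm 1.24.0, DESeq2 size factors, limma 3.58.1 on log2(TPM + 1) and log2(TPM + 0.1), other filters, RSEM expected counts, only the groups compared, a replicate block and leaving out each library. Replicates differed by more than sampling noise, at a chi-square of 8.74 or more per gene. The edgeR, DESeq2 and limma steps were tested on simulated data. cDNA was amplified without described molecular identifiers, so counting limits cover counting error only. Tables and figures were made with Python.

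The replicate block used the number in the deposited names. Deviations from group means correlated at 0.5 (81), 0.179 (91) and 0.33 (92) between young libraries of the same number. For different numbers they correlated at −0.409 to −0.179 where 1 library was named 81. The TOM+ 91 library gave 0.046 with TOM- 92, and the TOM+ 92 library gave 0.185 with TOM- 91. The data thus set the 81 libraries apart as a pair, and do not clearly tell 91 from 92. With adult libraries of the same number the correlations were −0.002 to 0.041, and a block for the young pairs alone was added after seeing the data.

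The 9 genes and all lists were chosen with earlier results of these data known. Named are all 9 genes, list genes that were called in any comparison, Marchf1, Traf1, Relb, Cd28, Pdcd1, Lgals9 and Irf1, and the 3 genes most like each called gene. A few others named (Traf3, Traf5, Traf6, Tyk2, Cmtm6, Btla, Cd40lg, Ifnar2, single marker genes) were chosen after their values were seen. Marker lists were used as sums and counts. Items of the interferon and ILC3 lists are not reported here and were left out of their counts, sums and medians.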

Additional observations from a re-analysis of the deposited data

How the results depend on the processing

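The 5 age calls among the 9 genes were unchanged in all 19 alternatives in both age comparisons, except that Cd40 lost its call in limma, at 0.95 and 0.90 on log2(TPM + 1) and at 0.96 and 0.91 on log2(TPM + 0.1). Counts of called genes among the 9 were 4 or 5 against either young group and 0 between the young groups. The block changed no call among the 9, and no list count by over 1.5 times other than those below. Over all genes, limma on log2(TPM + 1) called 1122 and 986 genes in the age comparisons where edgeR called 1853 and 1631, and the replicate block called 274 between the young groups where edgeR called 170. The block for all numbers absorbs the adult library named 95, which has no partner. The causes of the changes below were not tested.

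Calls in the list of other B7 and CD28 genes against young TOM+ cDC2 (8) became 5 in DESeq2 with apeglm, 1 in limma on log2(TPM + 1), 4 on log2(TPM + 0.1), and 3 to 8 without a replicate. Against young TOM- DC2 (6) they became 1 on log2(TPM + 1) and 3 to 7 without a replicate. CD40 pathway calls against young TOM- DC2 (5) became 2 in both limma fits, 3 with the replicate block and 3 to 6 without a replicate. The single turnover call became 0 in DESeq2 with apeglm, limma on log2(TPM + 1) and the replicate block, and 0 to 1 without a replicate. TIM calls with the replicate block were 2 against young TOM+ cDC2 (otherwise 1), 1 against young TOM- DC2 (otherwise 0) and 1 between the young groups (otherwise 0, and 1 with the young pairs alone blocked), and without a replicate 1 to 2 and, between the young groups, 0 to 1. Interferon path calls against young TOM+ cDC2 (1) became 2 with DESeq2 size factors, filterByExpr and RSEM expected counts, 0 in both limma fits, and 0 to 3 without a replicate. Against young TOM- DC2 (0) they became 1 with DESeq2 size factors, filterByExpr, DESeq2 with apeglm, RSEM expected counts, only the groups compared and either block, and 0 to 1 without a replicate.

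Signs turned only for log2 fold changes of genes that were not called. With the replicate block, Cd276 against young TOM- DC2 was 0.13 and March8 against young TOM+ cDC2 0.11. Havcr2 between the young groups was 0.00 in both limma fits. Leaving out a replicate gave, between the young groups, −0.16 to 0.05 for Cd274, −0.18 to 0.06 for Pdcd1lg2, −0.06 to 0.07 for Cd40, −0.34 to 0.00 for Cd276, −0.15 to 0.09 for Havcr2, −0.59 to 0.66 for Cd28, −0.25 to 0.78 for Ctla4, −0.23 to 0.51 for Tnfrsf14, −0.40 to 0.75 for Treml2, −0.01 to 0.14 for Birc3, −0.02 to 0.23 for Nfkbie, −0.00 to 0.13 for Stat3 and −0.00 to 0.13 for Irf1. It gave −0.24 to 0.08 for Cd276 against young TOM- DC2 and −0.89 to 0.22 for March8 against young TOM+ cDC2. Depth limits Cd276 and the lymphocyte receptor genes, which rest on few reads.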
